A study of Mus musculus with 6 samples.

Results

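The lysyl oxidase family comprises 5 genes, Lox, Loxl1, Loxl2, Loxl3 and Loxl4, and was read by 6 of the 34967 transcript probes on the array, which name 18069 genes. Members were taken by name, as every transcript probe whose only annotated gene symbol is one of the 5. Loxl1 had a pair of probes and each other gene had 1. The 6 cultures were early-passage fibroblasts from mouse embryos, each culture grown from an individual embryo; total RNA of each was labelled with biotin and read on a separate 1-colour CodeLink array of the mouse genome. Cultures C4, C3 and B1 came from embryos in which a gene-trap cassette had been inserted into the Ing1 locus (Ing1-deficient), and cultures H2, H3 and I2 came from wild-type littermates. Whether both copies of Ing1 carried the cassette, the strain, the embryonic day and the sex of the embryos are not stated in the labels.

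Lysyl oxidases are secreted copper enzymes that oxidise lysine side chains of collagen and elastin to aldehydes, and these aldehydes then join neighbouring chains into covalent cross-links. Lox and Loxl1 form a pair of pro-enzymes whose propeptides are removed outside the cell, whereas Loxl2, Loxl3 and Loxl4 carry scavenger receptor domains instead. Fibroblasts are a main source of these enzymes in connective tissue, where stiffness of the matrix depends on the cross-links. Ing1 encodes a PHD-finger reader of histone methylation that works with Sin3-HDAC complexes, and the study asked which genes respond to its loss.

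Signals are given as normalized intensity, the spot mean less its local background divided by the median of that array's transcript probes, so that 1 is the median transcript signal of the array. A probe was tested when all 3 arrays of at least 1 genotype carried a good quality flag, which held for 19575 probes. Of these, 1286 passed limma at an adjusted p under 0.05, which is 6.57%, with 4.94% higher and 1.63% lower in Ing1-deficient cells. Of the calls, 75.2% were higher, or 60.7% after quantile normalization and 65.6% after cyclic loess. Because probes differ in how strongly they hybridise, the intensity of a probe does not rank its gene against another gene. The targeted gene followed the labels, with Ing1 at 1.38 (C4), 0.93 (C3) and 1.39 (B1) in Ing1-deficient cells, against 11.7 (H2), 11.4 (H3) and 11.1 (I2) in wild-type cells. All 10 fibroblast markers were tested, and their summed intensity was 451 to 571 in Ing1-deficient cultures and 432 to 482 in wild-type cultures. Vim was the largest part of each sum. Thy1 and Lum rose (limma adjusted p of 0.0492 and 0.0369), which is 2 of 10 against 4.94% of all tested probes. The other 8 did not pass. By the brightest probe of each gene, 6 of the 10 differences were positive. Those of Vim (-0.20), Fap (-0.09), Ddr2 (-0.33) and Twist1 (-0.42) were negative on the log2 scale. Pdgfra was positive by its brightest probe (0.93, limma adjusted p = 0.108) and negative by its other tested probe (-0.70, limma adjusted p = 0.17).

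Within the family only Loxl1 passed the test, and it did so with both of its probes, at 1.61 and 1.90 times the wild-type level in Ing1-deficient cells. Lox, Loxl2 and Loxl3 did not pass, and Loxl4 was close to background on every array. The count was therefore 2 of 5 tested probes higher and 0 lower, against 4.94% of all tested probes higher, and both called probes read the same gene. By groups that do not overlap the count was again these 2 of 5, against 31.4% of all tested probes. No member differed by more than 2-fold, the size the study's own selection required.

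**Figure D1:**
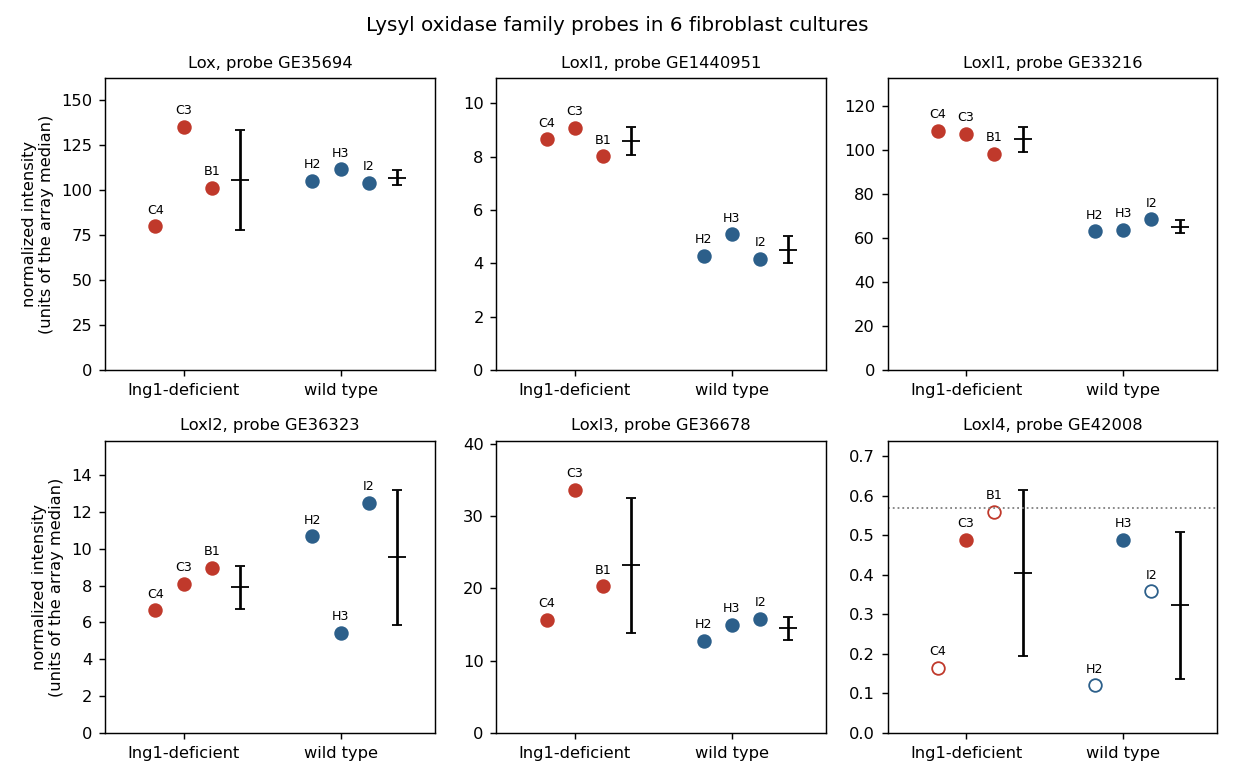
Normalized intensity (units of the array median, linear axes from 0) of each lysyl oxidase probe in the 3 Ing1-deficient cultures (red) and the 3 wild-type cultures (blue); filled points carry a good flag, open points any other flag, black bars are mean and SD (n = 3), and the dotted line in the Loxl4 panel is the floor of 0.57 used in the test. Both Loxl1 probes separate the genotypes, the Lox and Loxl3 points of C3 stand above the other Ing1-deficient points, and Loxl4 lies below the floor on all arrays.

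Loxl1 encodes the family member that acts on elastic fibres, and mice that lack it have defective elastin. Its brighter probe, GE33216, designed on the RefSeq transcript, read 108 (C4), 107 (C3) and 98.2 (B1) in Ing1-deficient cells, against 63.1 (H2), 63.7 (H3) and 68.4 (I2) in wild-type cells. All 3 Ing1-deficient cultures lay above all 3 wild-type cultures, and the gap between the groups was wider than the range within either. The means were 105 ± 5.64 in Ing1-deficient cells and 65.1 ± 2.90 in wild-type cells (SD, n = 3 each), a log2 difference of 0.69 ± 0.14 (SE, 95% interval 0.36 to 1.01, limma adjusted p = 0.0331).

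The other Loxl1 probe, GE1440951, is annotated to a separate cDNA accession and was dimmer. It read 8.65 (C4), 9.07 (C3) and 8.02 (B1) in Ing1-deficient cells, against 4.29 (H2), 5.10 (H3) and 4.18 (I2) in wild-type cells. Again no Ing1-deficient culture overlapped a wild-type one, and all 12 Loxl1 spots carried a good flag. The means were 8.58 ± 0.532 in Ing1-deficient cells and 4.52 ± 0.500 in wild-type cells (SD, n = 3 each), a log2 difference of 0.93 ± 0.15 (SE, 95% interval 0.58 to 1.28, limma adjusted p = 0.0227). After background subtraction the unscaled GE33216 signal was 37.1 to 69.7 times its local background, and that of GE1440951 was 2.31 to 5.89 times. Of all tested probes, 11.5% had a larger absolute difference than GE33216 and 5.09% a larger one than GE1440951. The mean of both probes gave a log2 difference of 0.81 ± 0.14 (SE, limma adjusted p = 0.0263).

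The size of the Loxl1 difference held when single arrays were left out, while the call did not. For GE33216 the log2 difference was 0.66 without C4 (limma adjusted p = 0.0859), 0.67 without C3 (0.0762) and 0.73 without B1 (0.103). It was 0.66 without H2 (0.105), 0.72 without I2 (0.132) and 0.67 without H3, where the adjusted p was 0.0314. For GE1440951 the log2 difference was 0.92 without C4 (limma adjusted p = 0.0722), 0.89 without C3 (0.0519), 0.98 without B1 (0.0907) and 0.89 without H2 (0.0846). It was 0.87 without I2 (0.118) and 1.02 without H3 (0.00806). Each of these fits has 1 array fewer, and the number of calls over all probes also changed, to between 5 and 2725.

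Lox encodes the founding enzyme of the family, which cross-links fibrillar collagen and elastin. Its probe read 79.8 (C4), 135 (C3) and 101 (B1) in Ing1-deficient cells, against 105 (H2), 111 (H3) and 104 (I2) in wild-type cells. The Ing1-deficient cultures lay on both sides of the wild-type cultures and varied more among themselves, with a coefficient of variation of 26.3% against 3.77%; that difference in spread was not tested. The log2 difference was -0.05 ± 0.20 (SE, limma adjusted p = 0.899), and its 95% interval ran from 0.703-fold to 1.32-fold. The sign of so small a value is not settled, since it was 0.13 without C4, the lowest culture, and 0.06 with array weights.

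**Figure D2:**
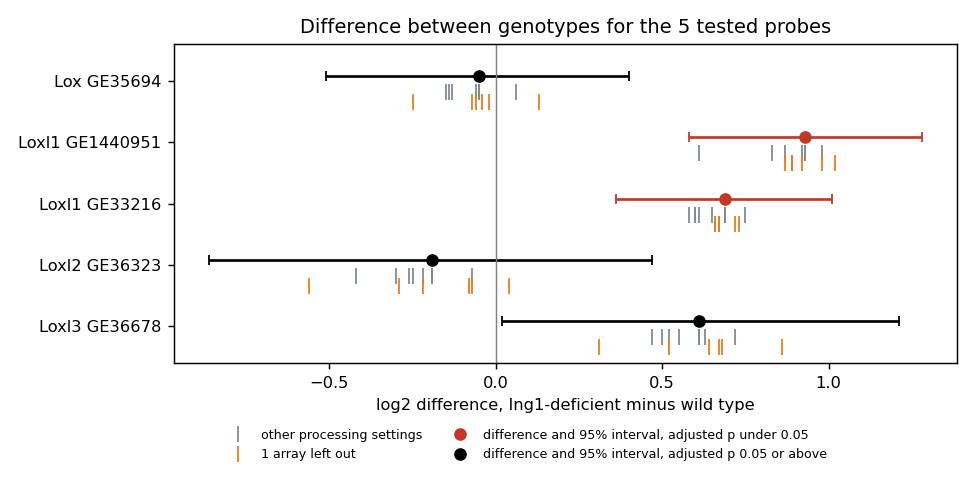
Log2 difference (Ing1-deficient minus wild type) of the 5 tested lysyl oxidase probes, with the 95% interval from the fit over all tested probes (points and bars, red where the adjusted p is under 0.05); ticks under each point give the difference under other processing settings (grey) and with 1 array left out (orange). Both Loxl1 probes stay between 0.58 and 1.02 throughout, whereas the ticks of Lox and Loxl2 fall on both sides of 0.

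Loxl2 encodes an enzyme that cross-links basement membrane collagen and has been linked to the repressor Snai1 in epithelial cells. Its probe read 6.67 (C4), 8.10 (C3) and 8.96 (B1) in Ing1-deficient cells, against 10.7 (H2), 5.43 (H3) and 12.5 (I2) in wild-type cells. Among the wild-type cultures H3 was lowest and lay under every Ing1-deficient culture, while H2 and I2 lay above them. The log2 difference was -0.19 ± 0.29 (SE, 95% interval -0.86 to 0.47, limma adjusted p = 0.721). It depended on single wild-type arrays, at -0.56 without H3 (adjusted p = 0.0884) and 0.04 without I2 (adjusted p = 0.958).

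Loxl3 encodes an enzyme that is needed in mice for the palate and the vertebral column. Its probe read 15.6 (C4), 33.6 (C3) and 20.3 (B1) in Ing1-deficient cells, against 12.7 (H2), 14.9 (H3) and 15.8 (I2) in wild-type cells. C3 and B1 lay above all wild-type cultures and C4 lay within them, so the groups overlapped. The means were 23.2 ± 9.34 in Ing1-deficient cells and 14.5 ± 1.58 in wild-type cells (SD, n = 3 each), and the log2 difference of 0.61 ± 0.26 (SE, 95% interval 0.02 to 1.21) did not pass (limma adjusted p = 0.18, unadjusted p = 0.0448). It was 0.31 without C3 (adjusted p = 0.399) and 0.86 without C4 (adjusted p = 0.113).

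Loxl4, the remaining member with scavenger receptor domains, gave no usable difference. Its probe read 0.164 (C4), 0.489 (C3) and 0.560 (B1) in Ing1-deficient cells, against 0.121 (H2), 0.489 (H3) and 0.358 (I2) in wild-type cells. Only the spots of C3 and H3 carried a good flag, and their signal stood 0.337 and 0.331 of the local background above it. The 95th percentile of the negative control spots was 0.397 (C4), 0.335 (C3), 0.328 (B1), 0.377 (H2), 0.300 (H3) and 0.313 (I2). Loxl4 lay under that percentile in C4 and H2 and above it in C3, B1, H3 and I2. The probe was not tested, and whether a low level of Loxl4 transcript was present is not settled by it.

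Ratios of 2 probes within the same array do not depend on a scaling factor of the array. Their level carries no meaning across genes, and only the difference of each ratio between genotypes was compared, for the 10 pairs of tested probes. The log2 ratio of Lox over Loxl1 was lower in Ing1-deficient cells with both probes, with a difference of -0.74 for GE33216 and -0.98 for GE1440951. The log2 ratio of Lox over Loxl3 was also lower, with a difference of -0.67. In these 3 pairs the groups did not overlap, so the exact two-sided permutation p was 0.1, the smallest that 3 against 3 arrays can give, and 0.333 adjusted over the 10 pairs. In the other 7 pairs, Loxl1 against Loxl2 and against Loxl3 among them, the groups overlapped. Since no pair can reach 0.05 in this design, no pair of members is shown to respond differently or alike.

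Markers of other cell types were read on the same RNA. Of 5 tested macrophage markers 3 rose (C1qa, C1qb and Mrc1), against 4.94% of all tested probes. The summed intensity of the 8 on the array was 41.3 (C4), 133 (C3) and 65.2 (B1) in Ing1-deficient cells, against 38.1 (H2), 27.6 (H3) and 18.8 (I2) in wild-type cells. Lyz2, which did not pass (limma adjusted p = 0.109), was most of each sum, at 25.2 (C4), 80.8 (C3), 39.6 (B1), 27.1 (H2), 19.7 (H3) and 12.4 (I2). Within the Ing1-deficient cultures the macrophage sum had the order C3, B1, C4, which is also the order of the Lox and Loxl3 signals but not of either Loxl1 probe. Within the wild-type cultures its order was H2, H3, I2, which is not that of Lox, Loxl3 or either Loxl1 probe. All 5 tested macrophage markers were higher at an unadjusted limma p under 0.05, which 5137 of all 19575 tested probes reached in either direction. Mrc1 had a good flag on 1 wild-type array, so it entered the test through the Ing1-deficient arrays. The other 3 on the array did not pass the flag filter. Of these, Ptprc read 0.122 to 0.437 in Ing1-deficient cultures and 0.125 to 0.348 in wild-type cultures, and Itgam 0.121 to 0.989 and 0.134 to 0.578. Adgre1 read 0.614 to 1.27 in Ing1-deficient cultures and 0.109 to 0.489 in wild-type cultures, without overlap. Smooth muscle markers rose for 2 of 7 (Myh11 and Actg2), against 4.94% of all tested probes. Their sums were 745 to 811 in Ing1-deficient and 439 to 735 in wild-type cultures, where H3 was lowest. Acta2 and Tagln, which did not pass (limma adjusted p of 0.47 and 0.6), were the brightest of the 7 on every array. Of 8 endothelial and 8 epithelial markers 3 each were tested and none passed limma, with 0 in either list at an unadjusted p under 0.05. The endothelial sum was 8.56 to 8.84 and the epithelial sum 4.85 to 5.79 in Ing1-deficient cultures, against 7.89 to 9.47 and 3.84 to 6.09 in wild-type cultures. The part of these cells in the lysyl oxidase values was not tested, and in RNA from whole cultures a change in the number of cells of a type and a change in RNA per cell cannot be told apart.

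Around the enzymes, 83 genes of collagen and elastin cross-linking were listed by role, of which 68 were tested. Of the 68, 1 rose and 3 fell (1.47% and 4.41%), against 4.94% and 1.63% of all tested probes. Tgm1, 1 of the 3 that fell, entered the test only through the wild-type arrays, where it was higher. Where good flags on all 6 arrays were required, 3 listed genes were called in total. The median log2 difference was 0.05 for the 68 genes and 0.02 for all tested probes. The 4 that passed belong to different steps.

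Among 10 tested genes for processing and matrix docking of the pro-enzymes, none passed limma, and none passed the test named in the labels after adjustment. An unadjusted limma p under 0.05 was found for 3 of the 10, against 5137 of all 19575 tested probes. The lowest p was that of Fbln5, which encodes fibulin-5, a protein that binds Loxl1 and elastin in elastic fibres. It read 120 (C4), 113 (C3) and 104 (B1) in Ing1-deficient cells, against 87.3 (H2), 65.0 (H3) and 79.6 (I2) in wild-type cells. The groups did not overlap, and the log2 difference of 0.55 ± 0.17 (SE) missed the threshold (limma adjusted p = 0.0802). Bmp1, which encodes the protease that cleaves the Lox propeptide and was named after its value was seen, differed by 0.50 ± 0.18 (SE, limma adjusted p = 0.116). Ltbp4, which encodes a latent TGF-beta binding protein of elastic fibres and was also named after its value was seen, differed in the other direction, by -0.76 ± 0.27 (SE, limma adjusted p = 0.119).

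Among 9 tested microfibril genes, Mfap2 rose and the other 8 did not pass. Mfap2 encodes a glycoprotein of the fibrillin microfibrils on which elastin is laid down. It read 21.2 (C4), 15.4 (C3) and 19.0 (B1) in Ing1-deficient cells, against 9.70 (H2), 8.15 (H3) and 10.1 (I2) in wild-type cells, with every Ing1-deficient culture above every wild-type one. The difference was 1.98-fold (log2 0.99 ± 0.18, SE, limma adjusted p = 0.0263). The call was lost without C4 (0.88, adjusted p = 0.0798), B1 (0.96, 0.0996), H2 (1.02, 0.0861) or I2 (1.05, 0.106), and kept without C3 (1.11) or H3 (0.89).

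Of the 11 substrate genes, which encode fibrillar and basement membrane collagens and elastin, only Col2a1 passed. Col2a1, the collagen gene of cartilage, read 3.36 (C4), 3.45 (C3) and 2.31 (B1) in Ing1-deficient cells, against 5.40 (H2), 4.56 (H3) and 5.46 (I2) in wild-type cells. It fell by 0.78 on the log2 scale (SE 0.19, limma adjusted p = 0.048), a call lost without C4, C3, B1, H2 or I2 (adjusted p of 0.0945, 0.07, 0.141, 0.147 and 0.177). The main substrates of fibroblast lysyl oxidases, named after their values were seen, gave log2 differences of 0.04 ± 0.31 for Col1a1 and 0.01 ± 0.15 for Eln (SE). Their 95% intervals ran from -0.65 to 0.73 and from -0.32 to 0.34.

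Genes of lysine and proline modification, the steps in the endoplasmic reticulum that precede cross-linking, gave 1 call among 15. P3h2, a collagen prolyl 3-hydroxylase gene, read 2.05 (C4), 2.06 (C3) and 1.67 (B1) in Ing1-deficient cells, against 4.32 (H2), 2.73 (H3) and 4.29 (I2) in wild-type cells, so all Ing1-deficient values lay below all wild-type values. It fell by 0.95 on the log2 scale (SE 0.21, limma adjusted p = 0.0367), and the call was lost without C4, C3, B1, H2 or I2 (adjusted p of 0.0937, 0.07, 0.128, 0.127 and 0.152).

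Among other cross-linking and amine oxidase enzymes 4 of 8 were tested and 1 passed. Tgm1, a transglutaminase gene of keratinising epithelium, read 0.544 (C4), 0.318 (C3) and 0.504 (B1) in Ing1-deficient cells, against 1.69 (H2), 1.23 (H3) and 1.41 (I2) in wild-type cells. Its spots were not well above background in any Ing1-deficient culture, so the size of the fold depends on the value given to those spots. Against the lowest good signal of each array or the spot itself, whichever was higher, it was 2.98-fold lower in Ing1-deficient cells. The fit, with Ing1-deficient values set to the floor of 0.57, gave a log2 difference of -1.33, or 2.51-fold lower (limma adjusted p = 0.0138). It gave -0.42 with normexp (adjusted p = 0.0464) and -0.33 with the floor of 1.14 (adjusted p = 0.223). Tgm1 entered the test only through the wild-type arrays, so its call is no support for a fall among the listed genes, and it is not tested where good flags on all 6 arrays are required. The call was also lost without B1, H2 or I2 (adjusted p of 0.0851, 0.0533 and 0.0947).

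None of 5 tested copper genes and none of 14 tested upstream regulators passed limma or that other test, and 2 and 3 of them had an unadjusted limma p under 0.05. Atox1, the copper chaperone that hands copper to the secretory pathway where lysyl oxidases are loaded, had the lowest p of the first list, with 23.2 ± 2.06 in Ing1-deficient and 17.7 ± 0.801 in wild-type cells (SD, n = 3 each, log2 difference 0.38, limma adjusted p = 0.143). Srf, a transcription factor of contractile genes, had the lowest of the second by the brightest probe of each gene. It read 8.12 ± 2.23 in Ing1-deficient and 4.75 ± 0.648 in wild-type cells (SD, n = 3 each, log2 difference 0.75, limma adjusted p = 0.0707). A dimmer Tgfbr2 probe, named after its value was seen, differed in the other direction, by -1.09 ± 0.31 (SE, limma adjusted p = 0.0688). The brighter Tgfbr2 probe, which stood for that gene, gave -0.12 ± 0.15 (SE, limma adjusted p = 0.672). At an unadjusted p under 0.05, 14 of the 68 genes passed limma, against 5137 of all 19575 tested probes.

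**Figure D3:**
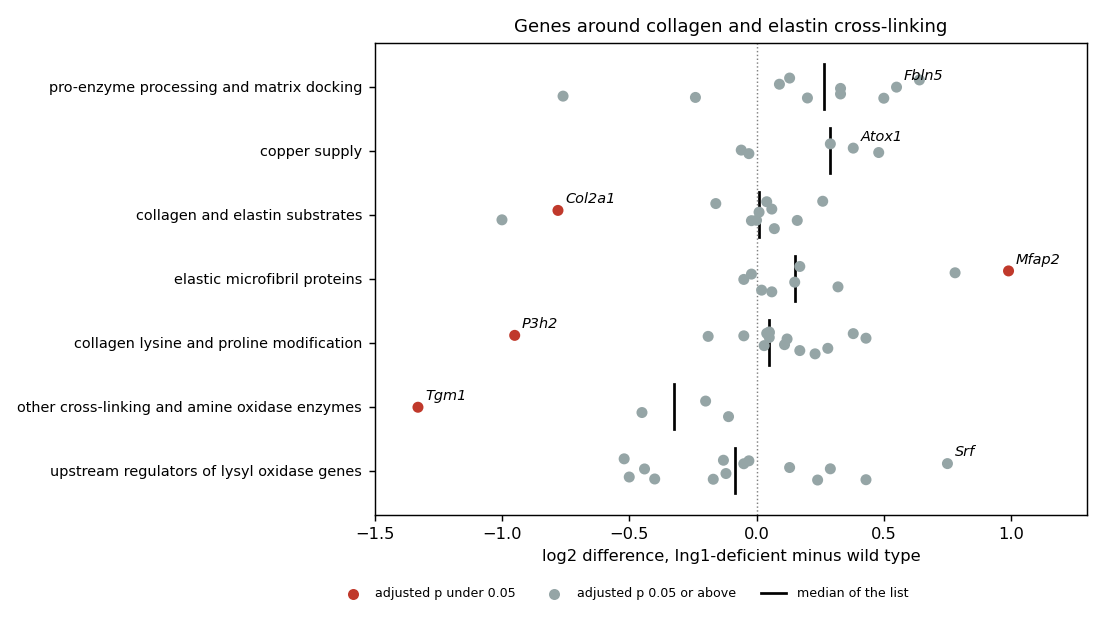
Log2 difference (Ing1-deficient minus wild type) of the 68 tested genes in 7 lists around collagen and elastin cross-linking; each point is a gene, red where the limma adjusted p is under 0.05, and black bars are list medians (vertical scatter within a list is only for legibility). Mfap2 is the only red point right of 0, and Col2a1, P3h2 and Tgm1 are the red points left of it.

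The genes whose signal followed each member most closely over the 6 arrays were found by Pearson correlation among probes with good flags on all arrays, as a description without a test. For Loxl1 they were Arntl (r = 0.998), Clca3b (0.994) and Cluh (0.994) with probe GE1440951, and Srsf2 (0.997), Armcx3 (0.997) and Psmd14 (0.996) with probe GE33216. Many others were nearly as close, since 253 and 223 probes had r over 0.95 with these Loxl1 probes. These counts came from 5122 and 7675 compared probes, since the filter on spread depends on the member. Both Loxl1 probes separate the genotypes, as 31.4% of all tested probes did, and the part of this in the counts was not tested. Fewer probes followed the other members, out of 9929 compared for Lox, 6524 for Loxl2 and 5488 for Loxl3. Lox was followed by Adam9 (0.987), Il6st (0.985) and Zfp52 (0.981), with 22 probes over 0.95. Loxl2 was followed by C9orf72 (0.985), Rab5a (0.972) and Mef2c (0.966), with 8 probes, and Loxl3 by Myadm (0.989), Tnip1 (0.979) and Tph1 (0.978), with 19 probes.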

How the data were processed

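RNA of 6 cultures was read on 1-colour arrays, 3 per genotype, which limits the precision. Per the file headers, the authors quantified spots with CodeLink Expression Analysis 4.1.0.29054; per the labels, values were median normalized. The deposited normalized intensity is on a linear scale, and the scanner tables equal the series value table in 217362 of 217362 values. Masked spots were treated as missing. Genome build is not given in the sources used here, so no coordinates are given.

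Values under 0.57, the median over arrays of the 1st percentile of good spots, were set to 0.57 before taking log2. Genotypes were compared with limma 3.58.1 (R 4.3.3, two-sided), adjusted by Benjamini-Hochberg over 19575 probes, threshold 0.05, checked on simulated data. Symbols came from the platform annotation (21615 probes with 1 symbol; 21487 matched by gene ID to RefSeq GRCm38.p6 names). A listed gene was represented by its brightest tested probe; the lists hold 83 genes.

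Named were all members, up to 4 passing genes per list or, with none, the gene with the lowest p, and the 3 most correlated genes per member, from probes whose SD was at least 0.5 of the member's. Members and lists were chosen with earlier results of these data known. Alternatives covered background correction, normalization, floor, flag filter, variance model, array weights, leading letter of the culture name as a random block (statmod 1.5.0), Eif2s3y as a covariate, the t-test named in the labels (the methods' t-test) and each array left out.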

Additional observations from a re-analysis of the deposited data

How the results depend on the processing

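Both Loxl1 probes kept their sign in all 20 settings, at 0.58 to 0.75 for GE33216 and 0.61 to 1.02 for GE1440951, and passed in 8 and 11 of them, 1 of which used the series value table with the same values. Loxl3 passed only with the letter block (0.72, adjusted p = 6.21e-05), where most probes passed. The sign reversed for Lox with array weights (0.06) and without C4 (0.13), and for Loxl2 without I2 (0.04); with an array left out Lox ranged from -0.25 to 0.13 and Loxl2 from -0.56 to 0.04.

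The number of lysyl oxidase probes called, 2, was 1 with quantile or cyclic loess normalization or a floor of 0.01, and 0 with no flag filter, the Eif2s3y covariate or the methods' t-test in either form; with the letter block it was 3 and with an array left out 0 to 2. The 4 cross-linking genes called became 2 with normexp or a floor of 0.01, 0 with the higher floor, no flag filter, the Eif2s3y covariate or the adjusted methods' t-test, 1 with the unadjusted methods' t-test and a ratio over 2 or under 0.5, 14 with array weights and 37 with the letter block; with an array left out they were 0 to 8. Calls over all probes, 1286, were 576 with normexp, 738 with quantile, 750 with cyclic loess, 275 and 191 with the floors of 0.01 and 1.14, 20 without the flag filter, 4720 with array weights, 23 with Eif2s3y, and 7 and 605 with the adjusted and unadjusted methods' t-test; with an array left out they were 5 to 2725. The share called higher was 75.2%, but 60.7% with quantile normalization, 65.6% with cyclic loess and 61.0% with array weights. The letter block gave 12903 calls at an estimated correlation of -0.886 between arrays of the same letter; B and C are Ing1-deficient and H and I wild type, so no letter holds both genotypes, and whether arrays of a letter share an origin is not stated in the labels. The cause of these changes was not tested.

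Ing1, at -3.23, missed the threshold without the flag filter (-3.23, adjusted p = 0.0524) and with the adjusted methods' t-test (-3.23, adjusted p = 0.0772), and was -1.94 with normexp. No paired analysis was run. The genotypes share only 1 replicate number, 3, and whether a number marks a litter is not stated in the labels. A block for slide or scan date was not run, as each array has its own slide and the headers give no scan date. Signal over background limits Loxl4, the dimmer Loxl1 probe and Loxl2. After background subtraction the unscaled Loxl2 signal was 3.68 (H3) to 10.6 (I2) times its local background.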
